A study of Mus musculus with 4 samples.

Results

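The 10 genes described here are transcribed inside the mitochondrion. Their messenger RNA was counted, gene by gene, in nuclei from the basolateral amygdala (BLA), which links sensory cues to threat and reward. The genes are mt-Nd1, mt-Nd2, mt-Nd4, mt-Nd4l, mt-Nd5, mt-Co1, mt-Co2, mt-Co3, mt-Atp6 and mt-Cytb. They make up 10 of the 13 mitochondrially encoded messenger genes, all of which are among the 32285 genes counted. They were chosen from measured values: in an earlier fit of the same libraries, with the replicate number as a term, these 10 passed the test for a lower level in DISC1-N excitatory neurons. Their DISC1-N over WT values below are therefore a description and carry no test.

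The samples were 2 DISC1-N and 2 wild-type (WT) libraries, all from C57BL/6J mice. Animals of both genotypes had received tamoxifen by intraperitoneal injection 6 h before their brains were taken. BLA tissue from both hemispheres of 5 mice was combined for each group, so the 2 libraries of a genotype may come from the same animals, and differences between them may be technical. The labels give no ages and do not describe the DISC1-N allele, the promoter behind it or the cells that carry it. Nuclei were freed with a detergent in a Dounce homogenizer and collected with a density gradient. Libraries were made with the Chromium 3′ version 3 chemistry, which captures RNA by its poly(A) tail and marks each captured molecule with a unique molecular identifier (UMI).

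The messenger genes of mitochondrial DNA encode subunits of the respiratory chain and of the ATP synthase. The ND genes encode subunits of complex I, which takes electrons from NADH; mt-Cytb encodes the central subunit of complex III; the CO genes encode the catalytic core of complex IV, cytochrome c oxidase; and mt-Atp6 encodes a proton channel subunit of the ATP synthase. Most subunits of these complexes are encoded in the nucleus. Long precursor transcripts are cut into messenger, ribosomal and transfer RNAs, and the messengers then receive short poly(A) tails. All of this takes place in the mitochondrial matrix, outside the nucleus.

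Several of the genes share bases, which bears on where a 3′ read can be assigned, and some end without a complete stop codon. The 2 lines below show, on build mm10 (GENCODE vM21 transcripts), the end of mt-Nd4l and the start of mt-Nd4, and the end of mt-Atp6 and the start of mt-Co3, both on the plus strand, with the shared bases in capitals.
mt-Nd4l into mt-Nd4, chrM:10152-10188: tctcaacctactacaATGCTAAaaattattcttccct
mt-Atp6 into mt-Co3, chrM:8592-8622: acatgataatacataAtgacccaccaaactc
The next lines give the last 30 bases of 5 genes, with the stop codon, or the single base of it that the gene encodes, in capitals. They are the genes whose proportions differed most between replicate numbers below (mt-Nd4l and mt-Atp6) and the 3 whose stop codon is completed only by the poly(A) tail.
mt-Nd4l, chrM:10144-10173: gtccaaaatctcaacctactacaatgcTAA
mt-Atp6, chrM:8578-8607: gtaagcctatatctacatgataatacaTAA
mt-Nd4, chrM:11515-11544: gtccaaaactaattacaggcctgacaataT
mt-Co3, chrM:9361-9390: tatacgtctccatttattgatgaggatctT
mt-Cytb, chrM:15259-15288: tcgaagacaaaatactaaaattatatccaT
The overlap of mt-Nd4l and mt-Nd4 is 7 bases long, that of mt-Atp6 and mt-Co3 is 1 base, and the genes mt-Atp8 and mt-Atp6 share 43 bases. Counts are by gene, and whether genes that share bases were captured on the same RNA molecule was not tested. All 10 genes lie on the plus strand; mt-Nd6, which is not one of them, lies on the minus strand. A run of pseudogenes on chromosome 1 repeats part of the mitochondrial genome. It holds copies with 100% identity over 99.6% of mt-Atp6 (Gm10925), 99.6% of mt-Co2 (Gm28661), 99.9% of mt-Co3 (Gm28437), 99.0% of mt-Nd4l (Gm10222) and 63.6% of mt-Nd4 (Gm28439). None of these copies is among the counted genes, and how reads that match both places were handled is not given in the sources used here, so the levels of these 5 genes are uncertain in that respect. The copy of mt-Nd4 stops 502 bases short of its 3′ end. The level of mt-Co1 is uncertain too: that run holds a copy of its last part (Gm29216, 99.8% identity over 483 bases, reaching the 3′ end), and a full-length copy on chromosome 2 (Gm13340) is 97.6% identical. mt-Nd2 has a copy with 96.7% identity over 510 bases that reaches its 3′ end (Gm13339), and the closest copy of mt-Nd5 has 95.2% identity over 954 bases (Gm4076). The best copy of mt-Cytb is 92.9% identical. How far these copies affect the levels of the 3 genes was not tested. No copy of at least 90% identity was found for mt-Nd1 among the annotated transcripts.

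The libraries held 27313 barcodes and between 37840301 and 48439711 UMIs each. After filtering, 25286 nuclei remained: 4334 in DISC1-N replicate 1, 5747 in WT replicate 1, 7641 in DISC1-N replicate 2 and 7564 in WT replicate 2. Any 2 libraries shared 5 to 21 barcodes. A class was given to 15688 nuclei from marker UMIs, with no mitochondrial gene among the markers, and nuclei of all 8 marker classes were found in every library; 6 classes had at least 20 nuclei in each. In the file headers the replicate 1 libraries carry Cell Ranger version 7.0.0 and the replicate 2 libraries version 6.0.2. Replicate number therefore moves with a software version and cannot be told apart from it, and genotypes are set side by side within a replicate number. Over all nuclei kept, the 10 genes gave 39261 UMIs in the DISC1-N and 73242 in the WT library of replicate 1, and 15544 in the DISC1-N and 19005 in the WT library of replicate 2. Their median share of a nucleus's UMIs was 0.112% in DISC1-N and 0.217% in WT replicate 1, and 0.0451% in DISC1-N and 0.0363% in WT replicate 2.

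In excitatory neurons each of the 10 genes had a lower summed level in the DISC1-N than in the WT library of the same replicate number. Summed over the 10 genes, the level was 581 CPM (counts per 1e6 UMIs of the class sum; 95% Poisson interval 566 to 596, counting error only) in DISC1-N replicate 1, against 1210 (1187 to 1233) in WT replicate 1. In replicate 2 it was 192 CPM (185 to 200) in the DISC1-N library and 391 (379 to 403) in the WT library. The log2 ratio of DISC1-N to WT was -1.06 in replicate 1 and -1.02 in replicate 2. The lower WT library nevertheless lay below the higher DISC1-N library, so the groups overlapped: replicate number separated the libraries more than genotype did.

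Among complex I genes, mt-Nd2, which encodes a membrane arm subunit, stood at 25.7 and 6.7 CPM in DISC1-N replicates 1 and 2, against 76.0 and 15 CPM in WT replicates 1 and 2. mt-Nd1, which encodes the subunit at the joint of the membrane arm and the peripheral arm, stood at 19.5 and 5.5 CPM in the DISC1-N libraries and 46.0 and 13.5 CPM in the WT libraries. Both genes were highest in WT replicate 1 and lowest in DISC1-N replicate 2, and the higher DISC1-N library lay above the lower WT library. mt-Nd4, a proton-pumping subunit of the membrane arm, stood at 64.5 and 27.3 CPM in DISC1-N libraries and 126 and 54.1 CPM in WT libraries. mt-Nd5, the subunit at the far end of that arm, was the lowest of the 10 genes, with 11.3 and 5.2 CPM in DISC1-N libraries and 24.2 and 9.6 CPM in WT libraries. These overlapped in the same way.
mt-Nd4l, the smallest of the complex I genes, had 20.3 and 13.7 CPM in DISC1-N libraries and 35.6 and 31.9 CPM in WT libraries. It was the only one of the 10 whose DISC1-N libraries both lay below both WT libraries in excitatory neurons, a pattern that 9% of the 15637 genes tested there showed. Its WT libraries stood closer together than those of the other 9 genes.

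The remaining complexes followed the same order of libraries. mt-Cytb of complex III had 82.3 and 31.7 CPM in DISC1-N replicates 1 and 2, against 146 and 65.7 CPM in WT replicates 1 and 2. mt-Co1, which encodes the subunit that binds oxygen in complex IV, had 85.4 and 32.2 CPM in DISC1-N libraries and 160 and 59.2 CPM in WT libraries. mt-Co2, which takes electrons from cytochrome c, had 83.7 and 22.6 CPM in DISC1-N libraries and 169 and 45.9 CPM in WT libraries. The log2 ratio of DISC1-N to WT was -0.91 and -0.88 in replicates 1 and 2 for mt-Co1, and -1.01 and -1.02 for mt-Co2. mt-Co3, the third mitochondrially encoded subunit of that complex, had 86.9 and 22.5 CPM in DISC1-N libraries and 180 and 48.7 CPM in WT libraries. mt-Atp6 was the highest of the 10 in WT replicate 1, with 101 and 24.9 CPM in DISC1-N libraries and 247 and 47.6 CPM in WT libraries. Over the 10 genes the log2 ratio ranged from -1.57 (mt-Nd2) to -0.81 (mt-Nd4l) in replicate 1, and from -1.29 (mt-Nd1) to -0.88 (mt-Co1) in replicate 2.

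**Figure D1:**
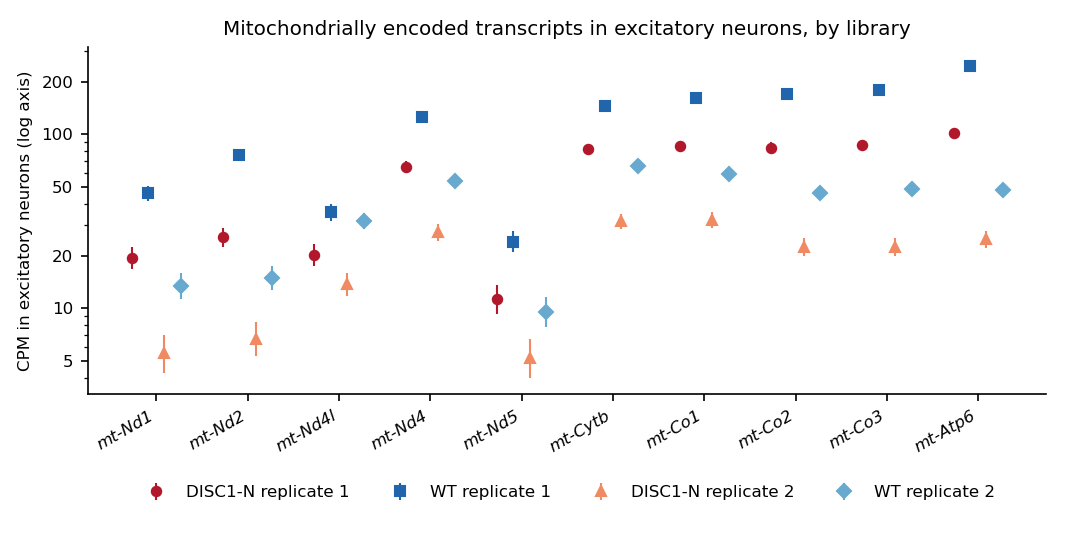
Level of each of the 10 genes in excitatory neurons, in CPM on a log axis, by library; points are sums over nuclei of a library and bars are 95% Poisson intervals for counting error. For every gene the DISC1-N point lies below the WT point of the same replicate number. Of the 10, mt-Nd4l alone has both DISC1-N points (20.3 and 13.7 CPM) below both WT points (35.6 and 31.9 CPM). That pattern was shown by 9% of the 15637 genes tested.

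The 3 mitochondrial messenger genes that did not pass the earlier selection were scarce. In excitatory neurons mt-Nd3 had 4.3 and 1.0 CPM in DISC1-N libraries and 6.7 and 2.3 CPM in WT libraries; mt-Atp8 had 6.0 and 1.4 against 8.3 and 2.6 CPM; and mt-Nd6 had 1.4 and 1.1 against 4.6 and 0.9 CPM. With the replicate number as a term, the DISC1-N over WT estimates of these genes, just outside the selection, were -0.80 ± 0.31 (log2, SE) for mt-Nd3, -0.92 ± 0.42 for mt-Nd6 and -0.59 ± 0.27 for mt-Atp8. Just inside it, mt-Nd5 had -1.0 ± 0.16, and the other 9 members ranged from -1.43 (mt-Nd2) to -0.89 (mt-Co1). The fit without that term (edgeR quasi-likelihood test, Benjamini-Hochberg adjusted p under 0.05) called 0 of the 10 genes and 0 of all 15637 genes in excitatory neurons, a background of 0%, with 97 genes at an unadjusted p under 0.05 (42 in DESeq2, which also called 0). With the replicate number as a term it called all 10 lower, against a background of 0.678% of genes called lower; this is the contrast by which the genes were chosen, so nothing is read from the count.

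Sums and medians told different things about the 2 replicate numbers. In replicate 1 the median excitatory nucleus held 6 UMIs of the 10 genes in the DISC1-N library and 10 in the WT library, and the median share was 0.0555% in DISC1-N and 0.107% in WT, a ratio of 0.519. In replicate 2 the median nucleus held 2 UMIs in the DISC1-N library and 1 in the WT library, and the median share was 0.0160% in DISC1-N and 0.0143% in WT, a ratio of 1.11. The lower sum in DISC1-N replicate 2 was thus not seen in the median nucleus.
The WT replicate 2 sum rested on few nuclei. No excitatory nucleus of DISC1-N replicate 2 held more than 19 UMIs of the 10 genes, whereas the highest WT replicate 2 nucleus held 289. There, 12 of 1116 nuclei with at least 64 UMIs held 42.5% of the UMIs of the 10 genes. Nuclei without any such UMI were 18.7% of DISC1-N replicate 2 and 27.0% of WT replicate 2 nuclei, at median depths of 9520 and 8800.5 UMIs. Without nuclei in which the 10 genes made up at least 1% of UMIs (1 DISC1-N and 12 WT nuclei in replicate 2), the sums were 191 CPM in DISC1-N and 236 in WT, a log2 ratio of -0.30. The same step in replicate 1 removed 0 DISC1-N and 11 WT nuclei and left a log2 ratio of -0.96. The number of UMIs varied far more than Poisson counting in WT replicate 2, with a variance 80.0 times the mean, against 1.76 times in DISC1-N replicate 2.

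**Figure D2:**
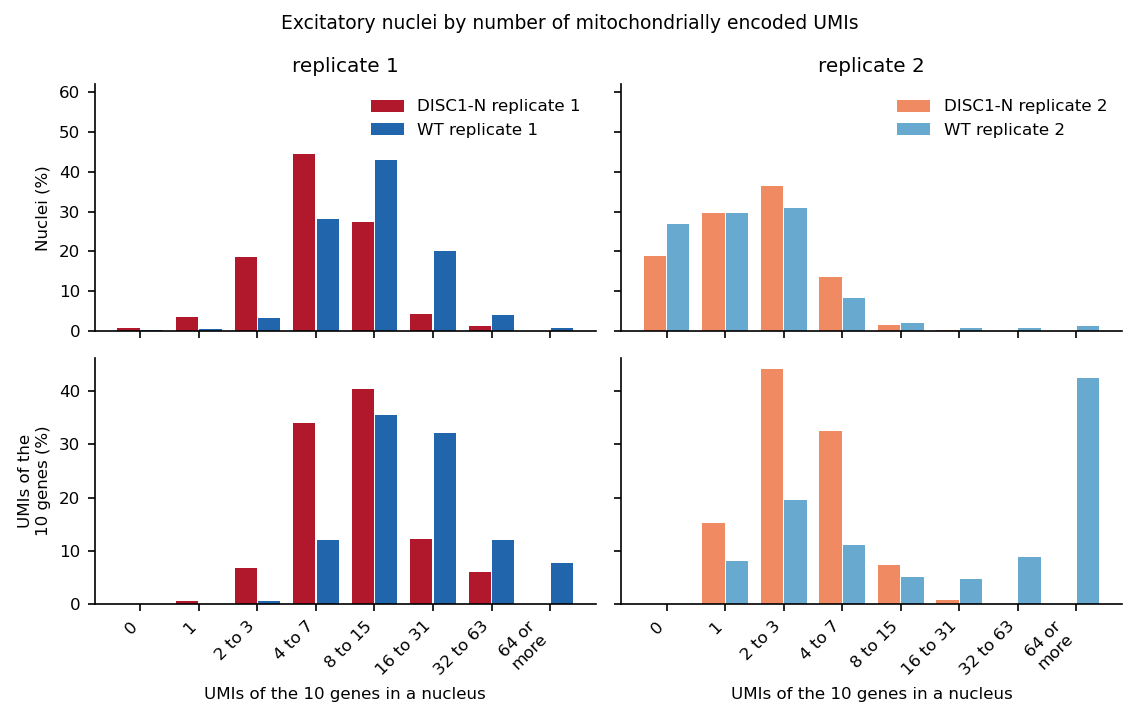
Excitatory nuclei grouped by their number of UMIs of the 10 genes, as the percentage of nuclei (upper row) and of those UMIs (lower row); the left column is replicate 1 and the right column replicate 2, with DISC1-N left of WT in each pair of bars. In replicate 2 the bars of nuclei largely overlap, while 42.5% of the WT UMIs fall in nuclei with 64 or more.

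Inhibitory neurons repeated this pattern. Their sum in replicate 1 was 1439 CPM in the DISC1-N and 2564 in the WT library, and in replicate 2 it was 470 in the DISC1-N and 839 in the WT library, log2 ratios of -0.83 and -0.84. All 10 genes were lower in DISC1-N in both replicate numbers. The ratio of median shares was 0.527 in replicate 1 and 1.03 in replicate 2, where 13 of 845 WT nuclei held 39.8% of the UMIs of the 10 genes. In replicate 2 the median inhibitory nucleus held only 2 such UMIs in the DISC1-N and 1 in the WT library. Without nuclei at 1% or more the log2 ratios were -0.77 and -0.13.

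All 4 glial classes had a lower DISC1-N sum in replicate 1; in replicate 2 the DISC1-N sum was higher in astrocytes, precursors and microglia and slightly lower in oligodendrocytes. Astrocytes of replicate 1 had 2111 CPM in the DISC1-N and 2941 in the WT library, and those of replicate 2 had 828 in the DISC1-N and 716 in the WT library. Oligodendrocytes had 2806 against 3562 CPM in the DISC1-N and WT libraries of replicate 1, and 1066 against 1111 in those of replicate 2. Oligodendrocyte precursors had 2472 against 3572 and 861 against 747 CPM in the same order, and microglia 2907 against 4078 and 1481 against 1250 CPM. In oligodendrocytes of replicate 2 the direction turned without nuclei at 1% or more, to 1047 CPM in DISC1-N and 847 in WT. The log2 ratios of all sums lay between -0.53 and -0.34 in replicate 1 and between -0.06 and 0.24 in replicate 2. All 10 genes were lower in DISC1-N replicate 1 in astrocytes, oligodendrocytes and precursors, and 9 of 10 in microglia. In replicate 2, 1 was lower in astrocytes, 5 in oligodendrocytes, 3 in precursors and 0 in microglia. The ratio of median shares in replicate 2 was above 1 in all 4 glial classes, from 1.29 to 1.39. These medians lie near the floor: the median glial nucleus held 1 or 2 such UMIs in DISC1-N replicate 2 and 1 in WT replicate 2. Nuclei without any were 17.6% to 22.8% of a glial class in DISC1-N replicate 2 and 28.3% to 32.3% in WT replicate 2. Without a replicate term, edgeR called 0 genes in each of these 5 other classes (a background of 0%; 142, 62, 36, 96 and 24 genes at an unadjusted p under 0.05 in inhibitory neurons, astrocytes, oligodendrocytes, precursors and microglia). DESeq2 also called 0 in each. The difference of the genotype ratio between neurons and glia was not tested.

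**Figure D3:**
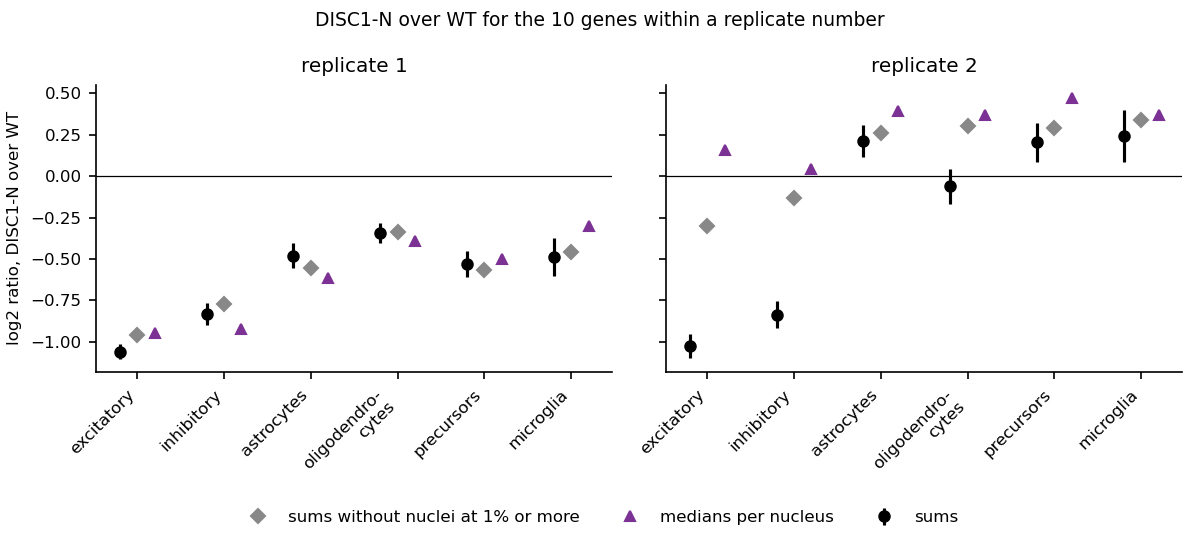
Log2 ratio of DISC1-N to WT for the 10 genes together, by class, in replicate 1 (left) and replicate 2 (right). Circles are sums with 95% intervals for counting error, diamonds are sums without nuclei in which these genes hold at least 1% of UMIs, and triangles are median shares per nucleus; all lie below 0 in replicate 1, while in replicate 2 the neuronal sums (-1.02 and -0.84) stand apart from their medians, which lie above 0.

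Other RNA moved with the replicate number. In excitatory neurons cytosolic ribosomal protein genes summed to 3987 CPM in DISC1-N and 4216 in WT replicate 1, and to 2275 in DISC1-N and 2688 in WT replicate 2. Nuclear-retained RNAs (the sum of a fixed list with Malat1, Neat1 and Meg3) stood at 130121 CPM in DISC1-N and 112317 in WT replicate 1, and at 75684 and 70278 CPM in DISC1-N and WT replicate 2. Of the markers of other classes in excitatory neurons, the 5 of oligodendrocyte precursors had the highest sum in every library, 90.6 and 91.3 CPM in DISC1-N replicates 1 and 2 and 89.7 and 104 CPM in WT replicates 1 and 2. The 6 inhibitory neuron markers moved with replicate number, with 34.8 and 12.2 CPM in DISC1-N replicates 1 and 2 and 34.4 and 19.4 CPM in WT replicates 1 and 2, where Dlx2 was at 0 in WT replicate 2. The 8 astrocyte markers all had UMIs and summed to 36.9 to 52.9 CPM in DISC1-N libraries and 34.2 to 55.2 in WT libraries. The 9 oligodendrocyte markers, also all present, summed to 50.4 to 71.6 CPM in DISC1-N and 51.8 to 80.8 in WT libraries. The 10 microglial markers summed to 45.8 to 52.6 CPM in DISC1-N libraries, with Tmem119 at 0 in replicate 1, and to 41.9 to 44.0 in WT libraries. The part of ribosomal protein RNA, retained RNA or other cells in the mitochondrial levels was not tested.

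By median share of a nucleus's UMIs, the 10 genes had the same order of classes in all 4 libraries. It ran from microglia through oligodendrocytes, oligodendrocyte precursors, astrocytes and inhibitory neurons to excitatory neurons. Sums did not keep this order in every library. In WT replicate 2 inhibitory neurons stood at 839 CPM, above astrocytes (716) and precursors (747). The medians in microglia were 0.369% and 0.135% in DISC1-N replicates 1 and 2, and 0.455% and 0.105% in WT replicates 1 and 2. Those in oligodendrocytes were 0.331% and 0.0970% in DISC1-N libraries and 0.433% and 0.0751% in WT libraries. Inhibitory neurons, the next to lowest, had 0.126% and 0.0366% in DISC1-N libraries and 0.240% and 0.0355% in WT libraries. Neighbours in this order were close next to the difference between libraries: the median of each of the 6 classes was at least 2.73 times higher in replicate 1 than in replicate 2 of the same genotype.
Fitted over the 24 sums of 6 classes and 4 libraries, with the library as a block (edgeR quasi-likelihood test), all 10 genes were higher than in excitatory neurons in each of the other 5 classes. The background of genes called higher over excitatory neurons was 16.9% in inhibitory neurons, 34.6% in astrocytes, 31.3% in oligodendrocytes, 28.2% in precursors and 31.5% in microglia. The median log2 fold change of the 10 genes was 1.01 in inhibitory neurons, 1.32 in astrocytes, 1.68 in oligodendrocytes, 1.44 in precursors and 1.62 in microglia, where the median of all genes tested lay between -0.02 and 0.05. In oligodendrocytes mt-Atp6 had 551 and 137 CPM in DISC1-N libraries and 780 and 150 CPM in WT libraries, 1.81 ± 0.21 (log2, SE) above excitatory neurons (adjusted p = 2.68e-07). mt-Cytb had 389 and 170 CPM in DISC1-N and 445 and 200 CPM in WT oligodendrocytes, a log2 fold change of 1.73 ± 0.17 (adjusted p = 2.39e-08). In inhibitory neurons mt-Co1 rose least of the 10, by 0.85 ± 0.19 (adjusted p = 0.0012), and stood at 189 and 71.8 CPM in DISC1-N and 310 and 121 CPM in WT libraries. In microglia mt-Nd4l rose most, by 1.81 ± 0.22 (adjusted p = 2.54e-07). The libraries of a genotype may share animals, so these p-values between classes may measure technical spread.

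The number of UMIs per nucleus did not follow the share. Excitatory neurons were 6.53 to 9.32 times deeper than microglia by median UMIs, but within a library the mean number of UMIs of the 10 genes differed only 1.41-fold to 2.89-fold among the 6 classes. Microglia had the lowest mean of the 6 classes in all 4 libraries: 5.12 and 1.66 UMIs in DISC1-N replicates 1 and 2, and 7.04 and 1.33 in WT replicates 1 and 2. Excitatory neurons had 6.99 and 1.95 UMIs in DISC1-N and 13 and 3.65 in WT libraries. On the scale of UMIs per nucleus, then, microglia lay below excitatory neurons, and on the scale of CPM above them; the fitted differences hold for CPM.
Within excitatory neurons the count also changed less than depth. In DISC1-N replicate 1 the shallowest of 4 depth groups (median 5730 UMIs) held a median of 4 UMIs of the 10 genes and the deepest (median 16792.5 UMIs) held 7, and the median share was 0.0883% and 0.0395%. In WT replicate 1 the shallowest group held 8 and the deepest 13 such UMIs, with shares of 0.171% and 0.0720%. In replicate 2 the medians were 1 or 2 UMIs in each depth group of both libraries.

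**Figure D4:**
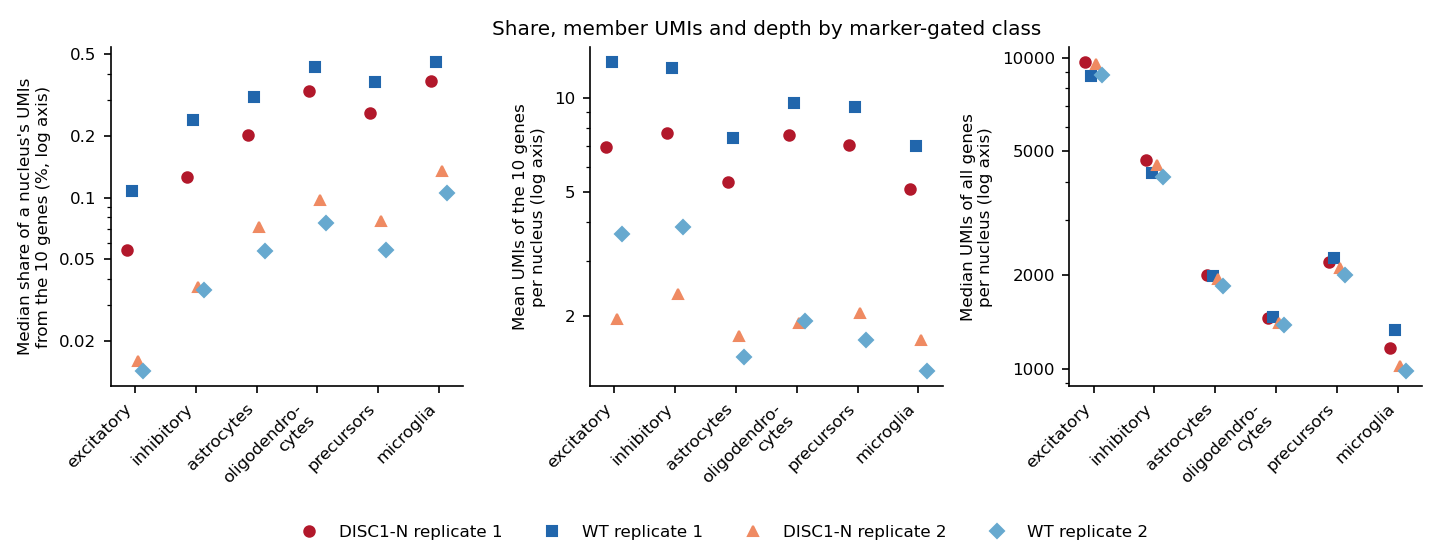
The 6 classes by library: the median share of a nucleus's UMIs from the 10 genes (left), the mean number of those UMIs per nucleus (middle) and the median number of UMIs of all genes per nucleus (right), each on a log axis. The share is highest and the depth lowest in microglia, while the middle panel spans only 1.41-fold to 2.89-fold within a library.

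Replicate number was a stronger divider than genotype. In excitatory neurons the 10 genes together were 3.02 times higher in DISC1-N replicate 1 than in DISC1-N replicate 2, and 3.09 times higher in WT replicate 1 than in WT replicate 2. With genotype as a covariate, 9 of the 10 genes rose in replicate 1 over replicate 2 in excitatory neurons (edgeR quasi-likelihood test, adjusted p under 0.05), where 15.5% of the 15637 genes tested were called higher. The same 9 of 10 rose in inhibitory neurons, astrocytes and oligodendrocytes, against backgrounds of 10.7%, 14% and 18.6%. All 10 rose in oligodendrocyte precursors (background 8.22%) and 8 of 10 in microglia (13.2%). Excitatory neuron markers in other classes moved with this contrast. They summed to 371 and 427 CPM in DISC1-N and WT oligodendrocytes of replicate 1, against 128 and 188 CPM in DISC1-N and WT oligodendrocytes of replicate 2. Over astrocytes, precursors and microglia these sums lay between 235 and 450 CPM in replicate 1 libraries and between 93.3 and 231 CPM in replicate 2 libraries. The oligodendrocytes' own markers went the other way, with 6732 and 7687 CPM in DISC1-N and WT replicate 1, against 14358 and 15263 CPM in DISC1-N and WT replicate 2. Other lists in oligodendrocytes were mixed, in the same order of libraries. Inhibitory neuron markers had 177 and 173 against 94.0 and 109 CPM, and microglial markers 153 and 105 against 135 and 89.2 CPM. Astrocyte markers had 195 and 198 against 229 and 164 CPM, and precursor markers 154 and 141 against 154 and 112 CPM. In excitatory neurons their own markers had 992 and 1011 against 953 and 1017 CPM. The part of these markers in the result was not tested. In excitatory neurons the largest fold change was that of mt-Atp6, 2.11 ± 0.08 (log2, SE; adjusted p = 1.93e-130), and that of mt-Nd2 was 2.08 ± 0.12 (adjusted p = 5.94e-60). mt-Nd4 rose by 1.12 ± 0.09 and mt-Cytb by 1.14 ± 0.09. The tests have few degrees of freedom, and the replicates may share animals, so these p-values may measure technical spread.
mt-Nd4l did not follow its neighbours. Its replicate 1 over replicate 2 fold change in excitatory neurons was 0.22 ± 0.12 (adjusted p = 0.144). It was 0.32 ± 0.14 in inhibitory neurons (0.0867), 0.41 ± 0.18 in astrocytes (0.0826), 0.33 ± 0.16 in oligodendrocytes (0.105) and 0.09 ± 0.24 in microglia (0.849). Of the 6 classes it passed the test in precursors alone, at 0.81 ± 0.18 (0.000117). With the stricter marker gate the sign turned in excitatory neurons (-0.31), inhibitory neurons (-0.25) and microglia (-0.10). mt-Nd4, whose first 7 bases are the last 7 of mt-Nd4l, was called higher in all 6 classes, by 1.04 to 1.61. mt-Nd5 was the other gene that missed the threshold in microglia (0.69 ± 0.33, adjusted p = 0.12).

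The proportions among the 10 genes shifted accordingly. Over all nuclei mt-Nd4l made up 3.32% of the UMIs of the 10 genes in the DISC1-N and 3.07% in the WT library of replicate 1, against 6.98% in the DISC1-N and 7.86% in the WT library of replicate 2. mt-Atp6 made up 17.9% and 20.5% in DISC1-N and WT replicate 1, against 12.9% and 12% in DISC1-N and WT replicate 2. For both genes, and for mt-Cytb, the values of the 6 classes in the replicate 1 libraries did not overlap those in the replicate 2 libraries. mt-Nd4l lay between 2.88% and 4.36% in replicate 1 and between 6.29% and 9.26% in replicate 2; mt-Atp6 lay between 17.4% and 22.2% in replicate 1 and between 9.85% and 13.5% in replicate 2.
mt-Cytb made up 14.6% and 12.9% over all nuclei in DISC1-N and WT replicate 1, against 16.9% and 17.7% in DISC1-N and WT replicate 2, and lay between 12.1% and 14.2% over the classes in replicate 1 and between 15.2% and 18.6% in replicate 2. mt-Nd4 was 10.7% and 10.8% in replicate 1 and 14.1% and 13.8% in replicate 2, in the same order. mt-Co2 and mt-Co3 went the other way, from 13.9% to 14.4% in replicate 1 libraries, against 11.5% to 12% in replicate 2 libraries. For the genes above genotype made less difference. Within a replicate number the largest gap over all nuclei was that of mt-Atp6 in replicate 1, 17.9% in DISC1-N and 20.5% in WT. mt-Co1 was an exception: it made up 15.1% in DISC1-N and 12.9% in WT replicate 1, against 16.1% in DISC1-N and 15.1% in WT replicate 2. The spread among the 6 classes of a library varied: mt-Atp6 lay between 12.4% and 13.2% in DISC1-N replicate 2 but between 9.85% and 13.5% in WT replicate 2, and mt-Nd1 lay between 2.69% and 4.72% in DISC1-N replicate 1 and between 2.03% and 4.00% in WT replicate 2. These differences in proportion were not tested.
Per kilobase of gene length and over all nuclei, mt-Atp6 was the highest of the 10 at 232 CPM per kilobase (mean of 4 libraries, SD 184), followed by mt-Co2 at 178 ± 118 and mt-Co3 at 154 ± 102. mt-Nd4l followed at 133 ± 29.5, although its summed CPM is among the lowest. mt-Nd5, the longest gene at 1824 bases, was the lowest at 10.4 ± 3.9. A 3′ assay counts molecules near their ends, so a level per kilobase is only a rough scale here.

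**Figure D5:**
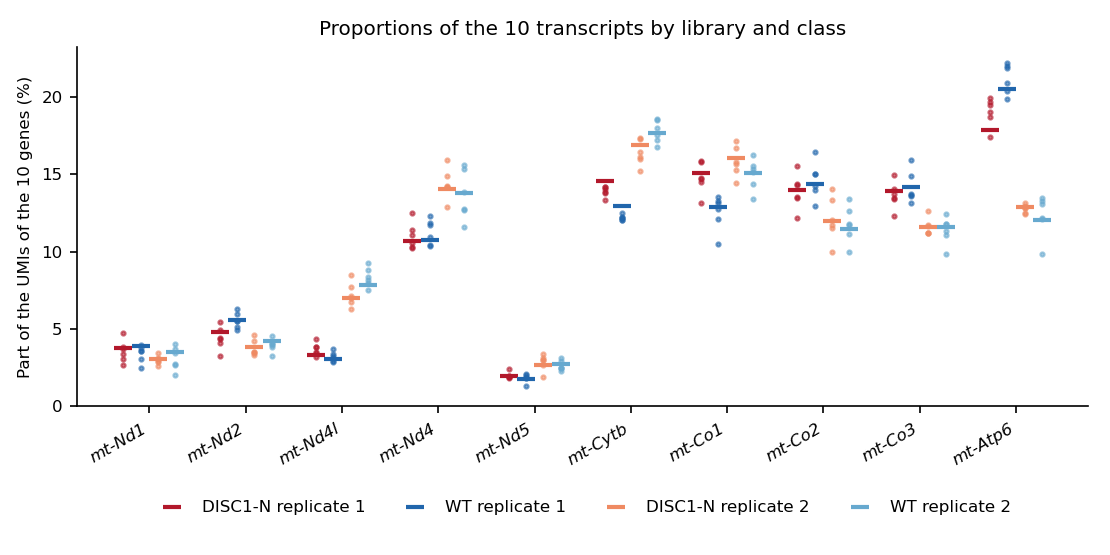
Part of the UMIs of the 10 genes held by each gene, in percent, by library; horizontal marks are all nuclei and dots the 6 classes. The replicate 1 and replicate 2 libraries separate for mt-Nd4l (2.88% to 4.36% against 6.29% to 9.26% over the classes) and for mt-Atp6 (17.4% to 22.2% against 9.85% to 13.5%).

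Nuclei in which the 10 genes made up at least 1% of UMIs were rare and unlike the rest. They numbered 84 in DISC1-N replicate 1 and 217 in WT replicate 1, and 8 in DISC1-N replicate 2 and 59 in WT replicate 2. In DISC1-N replicate 1, WT replicate 1 and DISC1-N replicate 2 they were shallow, with medians of 1635, 1047 and 954 UMIs, but in WT replicate 2 their median was 4164 UMIs, above the 3108 UMIs of the other nuclei of that library. They held 12.1% of the UMIs of the 10 genes in the DISC1-N and 9.41% in the WT library of replicate 1, and 1.02% in the DISC1-N and 24.1% in the WT library of replicate 2. Ribosomal protein genes summed in them to 46681 CPM in DISC1-N replicate 1, against 4795 CPM in its other nuclei, and to 7171 CPM in WT replicate 2, against 4168 CPM in its other nuclei. Of the 59 such nuclei in WT replicate 2, 12 were gated as excitatory neurons, 13 as inhibitory neurons and 12 as oligodendrocytes, and 16 had no class. In WT replicate 1, 70 of 217 were oligodendrocytes. mt-Nd4l made up 2.79% of the UMIs of the 10 genes in these nuclei of DISC1-N replicate 1 and 3.39% in its other nuclei, and 6.85% in the 59 nuclei of WT replicate 2 and 8.18% in its other nuclei. In the 8 nuclei of DISC1-N replicate 2, which held 158 such UMIs, it made up 4.43% against 7.01% in the other nuclei, and mt-Atp6 made up 17.7% against 12.8%.

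The 10 genes varied together. Over the 24 sums of classes and libraries, the Pearson correlation of log2(CPM + 1) between pairs of them had a median of 0.965, was highest for mt-Co2 with mt-Co3 (0.996) and lowest for mt-Nd4l with mt-Atp6 (0.756). These sums share libraries and depth, and the values are descriptions. Among 8136 genes with a mean of at least 20 CPM, the genes most correlated with the sum of the 10 were Hsp90aa1 (0.952), a cytosolic heat shock chaperone, 2900097C17Rik (0.949), Fkbp3 (0.942), a prolyl isomerase, and the ribosomal protein genes Rplp1 (0.941) and Rpl17 (0.938). They were followed by AY036118 (0.937), the complex I gene Ndufs8 (0.936), Tpt1 (0.935) and the complex IV gene Cox4i1 (0.933). Hsp90aa1 had 135 and 52.2 CPM in DISC1-N and 180 and 68.6 CPM in WT excitatory neurons of replicates 1 and 2, the order of libraries seen for the mitochondrial sum. The median correlation was 0.814 over 77 nuclear-encoded oxidative phosphorylation genes and 0.842 over 77 ribosomal protein genes, against 0.167 over all genes ranked.

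Nuclear-encoded oxidative phosphorylation genes differed with replicate number to an extent that varied by class. The list also holds the complex II genes and the cytochrome c gene Cycs, whose products are not subunits of the complexes of the 10 genes. Of its 78 genes tested in excitatory neurons, 63 rose and 1 fell in replicate 1 over replicate 2 (15.5% and 16.7% of all genes), with a median log2 fold change of 0.54 against 0.01 over all genes. Those of lowest p were the ATP synthase gene Atp5a1 (1.28 ± 0.09) and the complex IV genes Cox4i1 (1.23 ± 0.09), Cox7b (1.06 ± 0.08) and Cox6a1 (1.20 ± 0.12). The number that rose was 60 of 78 in inhibitory neurons, 27 in astrocytes, 21 in oligodendrocytes, 45 in precursors and 8 in microglia, where 10.7%, 14%, 18.6%, 8.22% and 13.2% of all genes were called higher. The 8 of 78 in microglia are a smaller share than that background. The median log2 fold change of the 78 was nevertheless above that of all genes in each class. It was 0.55 in inhibitory neurons, 0.37 in astrocytes, 0.22 in oligodendrocytes, 0.50 in precursors and 0.26 in microglia. Medians of all genes tested there were 0.02 or less. In oligodendrocytes over excitatory neurons 72 of the 78 rose and 0 fell (31.3% and 29.4% of all genes), with a median of 1.11 against 0.04 over all genes; Ndufs5 (1.54 ± 0.10) and Atp5h (1.38 ± 0.10) had the lowest p. Of 40 genes of mitochondrial DNA maintenance, transcription and RNA handling tested in excitatory neurons, 4 rose and 4 fell in replicate 1 over replicate 2, among them the mitochondrial transfer RNA methyltransferase subunit Trmt10c (0.81 ± 0.18) and the polynucleotide phosphorylase Pnpt1 (-0.34 ± 0.08). Their median was 0.11. In oligodendrocytes over excitatory neurons, 11 rose and 9 fell.
In DISC1-N over WT excitatory neurons 0 of the 78 oxidative phosphorylation genes and 0 of the 40 others passed without a replicate term, with medians of -0.16 and 0.03. Ndufa4, of lowest p, had a log2 fold change of -0.40 ± 0.24 (edgeR adjusted p = 1.00). With the replicate number as a term 5 of 78 fell, where 0.678% of all genes were called lower, Ndufa4 among them (-0.41 ± 0.08, adjusted p = 0.000173), and the median was -0.17; 0 of 40 of the other list passed. In each of the other 5 classes that fit called 0 of the 78. Over these classes together it called 136 genes in either direction, with 8268 to 12852 genes tested in a class. With so few genes called, nothing is read from the 0 of 78. The medians of the 78 were nevertheless similar there: -0.19 in inhibitory neurons, -0.13 in astrocytes, -0.16 in oligodendrocytes, -0.24 in precursors and -0.21 in microglia. Those of all genes tested lay between -0.01 and 0.01.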

How the data were processed

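Single-nucleus RNA was measured in 4 libraries. The values deposited by the authors are raw counts, that is, unnormalized UMIs of each gene in each barcode. The submitters' processing notes name Cell Ranger 7.0.0 and build mm10; the file headers name 7.0.0 or 6.0.2. Whether introns were counted is not given in the sources used here.

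Nuclei were kept if they had 500 or more genes and no more than 5% of UMIs from mitochondrial genes, and the highest Scrublet doublet scores were removed, 0.8% per 1000 nuclei (Python 3.11.15, scanpy 1.11.5). A nucleus was given the class with most marker UMIs if it had at least 2 markers, 3 UMIs and 60% of its marker UMIs in that class; these limits were set with the data in view. Each class of each library was summed, and the sums were tested with edgeR 4.0.16 (R 4.3.3; quasi-likelihood test, TMM, filterByExpr minimum count 10, Benjamini-Hochberg adjustment over all genes tested, threshold 0.05). The fits were run on simulated counts as a check. For the genotype fits these counts held no replicate effect and used the spread of the fit with a replicate term. That spread (coefficient of variation between libraries) was 0.054 in excitatory neurons, against 0.176 without the term. The check therefore does not cover DISC1-N over WT without covariates on the real libraries. Classes with under 20 nuclei in a library were not fitted. DISC1-N was fitted over WT without covariates, replicate 1 over replicate 2 with genotype, and class over excitatory neurons with library. With 2 libraries against 2, an exact permutation test of a single value cannot go below p = 0.333. Alternatives were DESeq2 1.42.0, other filters and gates, thinning to 1000 UMIs, a replicate block and leaving out each library.

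The members and lists were chosen with earlier results of these data known. Named were the 13 mitochondrial messenger genes, the 10 genes most correlated with the sum (mean of at least 20 CPM, pseudocount 1 CPM) and up to 4 genes of lowest p per pathway list. Of the correlated genes, 1 is not reported here. Copies were searched among annotated transcripts (at least 90% identity over 100 bases). Intervals cover counting error only.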

Additional observations from a re-analysis of the deposited data

How the results depend on the processing

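Replicate numbers are not said to mark shared batches, and there are only 2 pairs; deviations of same-numbered libraries from their group means correlated at 0.52 to 0.76 across genes in the 6 classes. With a replicate block, 180 genes passed in DISC1-N over WT excitatory neurons, against 0 without it, and 136 in the other 5 classes together, against 0. The 10 members passed with the block in excitatory neurons, by the contrast that chose them. With no filter on low counts 7 genes passed in the other classes. Leaving out each library gave 2 to 35 genes in excitatory neurons and 6 to 207 in the other classes (207 without DISC1-N replicate 1). Without WT replicate 1 the DISC1-N over WT estimate turned positive for mt-Nd2 (0.024), mt-Co2 (0.13), mt-Atp6 (0.32) and mt-Co3 (0.086); the lowest estimates with a library left out came without DISC1-N replicate 1 (-2.65, -2.15, -2.46 and -2.24 for these genes). Replicate 1 over replicate 2 called 19196 genes over the 6 classes, 4114 with DESeq2, 5853 with the stricter gate, and 10205 to 14426 with a library left out, where the genotype term was dropped, a choice made after seeing the data. These counts take both directions. The members called higher were 54 of 60 in the main run, 44 with DESeq2 and 51 with the stricter gate. Of all genes tested in a class, 8.22% to 18.6% were called higher in the main run. For mt-Nd4l this estimate turned negative under the stricter gate in excitatory neurons (-0.31), inhibitory neurons (-0.25) and microglia (-0.10). It also did so with a library left out: to -0.26 and -0.31 in excitatory neurons and -0.12 and -0.089 in inhibitory neurons when WT replicate 1 or DISC1-N replicate 2 was dropped, and to -0.025 and -0.050 in microglia when DISC1-N replicate 1 or WT replicate 2 was dropped. The highest such estimates were 0.90, 0.91 and 0.13 in these classes. Class over excitatory neurons kept all 50 member calls, each of them higher, in every alternative run. Of all genes tested in a class, 16.9% to 34.6% were called higher there in the main run. Genes called in either direction numbered 39438, and 32207 to 36783 with a library left out. The log2 ratio of sums in excitatory neurons, -1.06 in replicate 1, was -0.95 with nuclei under 1% mitochondrial UMIs and -1.13 with nuclei thinned to 1000 UMIs; in replicate 2, -1.02, it was -0.30 under 1% and -1.23 with the stricter gate. The median share in DISC1-N replicate 1, 0.0555%, was 0.0522% with the stricter gate. Thinned medians were 0% in DISC1-N replicate 1, DISC1-N replicate 2 and WT replicate 2, so depth limits what a median can show. The cause of these changes was not tested.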
